A study of Mus musculus with 8 samples.

Results

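Interleukin-5 (IL-5) was given to aged mice, and the change in RNA that microglia and brain T cells had in common was measured as all 4 IL-5 libraries against all 4 PBS libraries, with cell type as a covariate. These are all 8 libraries of the series: 2 of microglia after PBS, 2 of microglia after IL-5, 2 of T cells after PBS and 2 of T cells after IL-5. Every mouse was C57BL/6 and 20 to 22 months old, with no transgene named. The treated mice received 2 µg of IL-5 on each of 2 days, the controls phosphate-buffered saline (PBS), and both cell types were sorted from the brain by surface markers that the labels do not list. The labels do not say whether libraries came from separate or pooled mice, or whether microglia and T cell libraries of one number share mice, so p-values measure the spread between these libraries, which may be technical in part.

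IL-5 is a cytokine made by T helper 2 cells and innate lymphoid cells that drives eosinophils and activates mouse B cells. Its receptor pairs the IL-5-binding chain Il5ra with the common beta chain Csf2rb, which IL-3 and GM-CSF receptors also use, and signals through JAK2 to STAT5. STAT5 turns on feedback genes such as Cish and Socs2. Microglia are the resident macrophages of the brain, and T cells are scarce in the healthy brain and more frequent with age.

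No gene passed the test of the shared effect. Of 15397 genes tested with edgeR, 0 were higher (0%) and 0 were lower (0%) at an adjusted p under 0.05, and the smallest adjusted p was 1. At an unadjusted p under 0.05, 360 genes were higher (2.34%) and 262 lower (1.7%), which together are 4.04% of the genes tested. DESeq2 called 8 genes higher (0.052%) and 6 lower (0.039%). The statements below therefore give values, spreads and counts, and none of the genes named is claimed to have changed in both cell types unless a test is given with it.

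The promoters of 4 genes discussed below show the letters that 2 of the described pathways are known to use. Capitals mark matches, on either strand, to 2 copies of GAAA separated by any 2 bases, the core of the element bound by interferon-activated factors (shown for Ifit3, Cxcl10 and Igtp), or to TTC and GAA separated by any 3 bases, the core bound by STAT factors (shown for Cish). The 300 bases run from 250 before to 50 after the start of transcription, from RefSeq on GRCm38.p6, and are printed in the direction of the gene. Their positions are chr19:34583279-34583578 on the plus strand for Ifit3, chr5:92348840-92349139 on the minus strand for Cxcl10, chr11:58199306-58199605 on the plus strand for Igtp and chr9:107296409-107296708 on the plus strand for Cish.
Ifit3: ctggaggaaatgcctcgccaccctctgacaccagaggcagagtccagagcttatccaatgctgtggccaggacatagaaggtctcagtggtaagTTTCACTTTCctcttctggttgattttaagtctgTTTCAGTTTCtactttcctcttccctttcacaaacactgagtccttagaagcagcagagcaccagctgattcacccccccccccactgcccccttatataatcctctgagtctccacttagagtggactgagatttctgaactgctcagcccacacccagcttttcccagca
Cxcl10: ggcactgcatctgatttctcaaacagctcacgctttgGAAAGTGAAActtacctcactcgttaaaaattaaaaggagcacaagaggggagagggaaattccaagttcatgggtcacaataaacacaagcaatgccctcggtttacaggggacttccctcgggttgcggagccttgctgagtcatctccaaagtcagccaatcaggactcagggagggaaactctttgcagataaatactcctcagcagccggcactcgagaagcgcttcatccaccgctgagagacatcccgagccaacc
Igtp: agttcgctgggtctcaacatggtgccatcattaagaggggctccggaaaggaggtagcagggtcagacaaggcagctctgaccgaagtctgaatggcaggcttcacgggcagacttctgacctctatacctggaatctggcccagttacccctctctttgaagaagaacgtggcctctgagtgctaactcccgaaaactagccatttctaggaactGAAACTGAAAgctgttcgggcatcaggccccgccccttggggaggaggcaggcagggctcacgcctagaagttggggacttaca
Cish: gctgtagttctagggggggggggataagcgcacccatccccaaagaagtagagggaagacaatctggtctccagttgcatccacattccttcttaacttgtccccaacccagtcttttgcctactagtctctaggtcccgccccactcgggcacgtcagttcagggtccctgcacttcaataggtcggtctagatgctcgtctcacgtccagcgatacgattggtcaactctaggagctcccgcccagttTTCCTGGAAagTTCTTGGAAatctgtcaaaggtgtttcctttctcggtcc
Ifit3 holds 2 such matches, which begin 156 and 122 bases before the start. Cxcl10 and Igtp hold 1 match each to the interferon core, at 213 and 34 bases before it. Igtp also holds 1 match to the STAT core, 45 bases before the start, which is left in lower case. The 2 matches of Cish begin at the start itself and 11 bases after it.

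Among all 27025 promoters in the RefSeq table, 3.99% held the interferon core and 9.55% held the STAT core on either strand, overlaps of the 2 motifs included. Among the genes tested, from which the sets below are drawn, 11947 were matched. Of these, 3.83% held the interferon core and 8.34% the STAT core. Of the type I interferon-stimulated genes, 26 of 36 were matched to a promoter and 13 of these (50%) held the interferon core. Of the 5 members that lay lower in both cell types without overlap, 4 were matched and 1 of them (25%), Ifit3, held it. Of the interferon gamma-induced genes, 10 of 13 matched (76.9%) held it. Among genes higher in all IL-5 libraries of both cell types, defined below, 12 of 362 matched promoters (3.31%) held the interferon core and 27 (7.46%) the STAT core. Among genes lower in all of them, 21 of 378 (5.56%) held the first and 29 (7.67%) the second. A match describes letters in the window and is not a bound site.

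Gene counts ranged from 23536908 to 30423828 per library. Levels are counts per 1000000 gene counts of the library (CPM), in which 1 count equals 0.0329 to 0.0425. Fold changes and overlaps between libraries also use edgeR's TMM scaling, which compensates for differences in composition. Microglia markers summed to 29764 to 37458 CPM in the microglia libraries and to 401 to 638 CPM in the T cell libraries, and T cell markers to 20.2 to 144 and 3953 to 6469 CPM, so both sorts carried their labelled markers. Each sort's own marker sum was lower after IL-5. Microglia markers in microglia were at 29764 to 31795 CPM after IL-5 against 35865 to 37458 after PBS. T cell markers in T cells were at 3953 to 4981 CPM against 5391 to 6469. The part of this in the shared differences was not tested. The microglia libraries also held 14244 to 18536 CPM of neutrophil markers, and all libraries held choroid plexus markers, described below. Microglia IL-5 replicate 1 stood apart on the second principal component (-197 against -80.9 to 93.8 in the other libraries), with 25.5% of its reads outside annotated genes against 15.2% to 19.8% in the others and a TMM factor of 0.638. In bulk RNA, fewer cells of a type and less RNA per cell cannot be told apart.

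How often both cell types moved together was counted without a test. A gene was counted when its mean was at least 1 CPM in each cell type and the 2 IL-5 libraries lay beyond the 2 PBS libraries, with no overlap, in each. Of 12394 such genes, 460 (3.71%) were above in both cell types and 477 (3.85%) below in both, 937 genes or 7.56% in all. Another 815 genes (6.58%) showed no overlap in opposite directions, 400 above in microglia and below in T cells (3.23%) and 415 the reverse (3.35%). Within microglia alone 17.9% of the genes were above and 20.4% below, and within T cells 17.2% and 18.9%. Scaling by library size alone, without TMM, gave 367 above and 558 below. Leaving out 1 library, which relaxes the rule for that group, gave 865 above and 754 below without microglia IL-5 replicate 1, and 760 above and 800 below without T cells IL-5 replicate 1.

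Across those 12394 genes the fold changes in microglia and T cells had the same sign in 51.7%. Pearson's r between them was 0.0114 and Spearman's rho 0.0413, across genes, which are not independent replicates. Of 458 genes higher in microglia at an unadjusted p under 0.05, 59.6% were also higher in T cells, with a median log2 fold change there of 0.14. Of 390 lower in microglia, 56.9% were also lower in T cells, with a median of -0.12. Read the other way, 48.9% of 268 genes higher in T cells were higher in microglia, and 62.3% of 106 genes lower in T cells were lower in microglia. Across genes the estimated fold changes in the 2 cell types were thus nearly uncorrelated. Each estimate rests on 2 libraries per group, and spread between libraries draws such a correlation toward 0. Whether the effects of IL-5 themselves are unrelated was not tested.

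**Figure D1:**
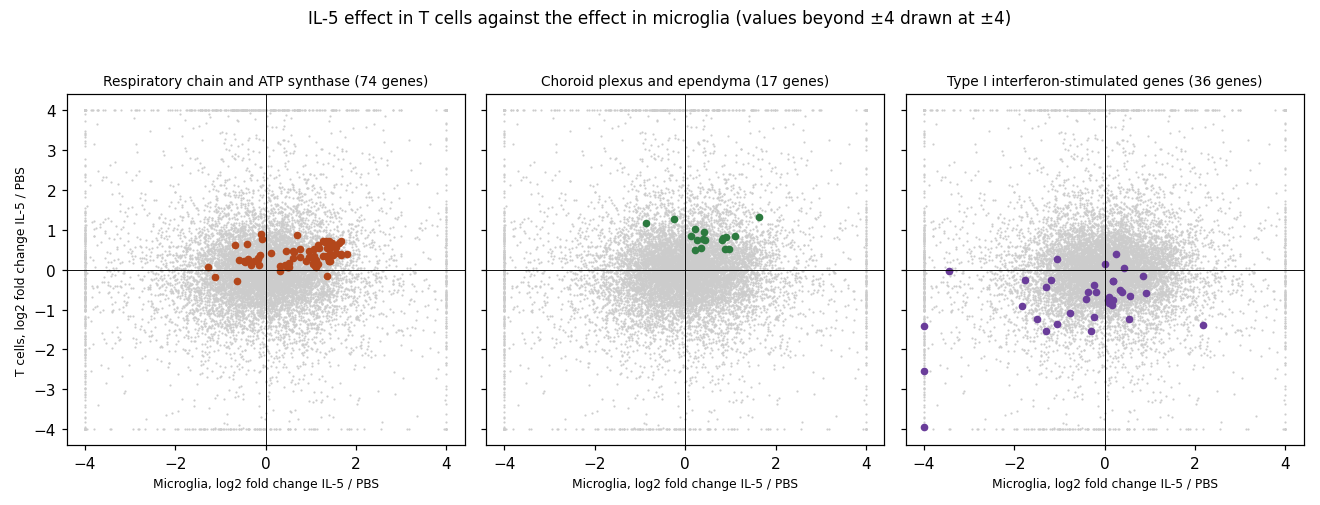
Log2 fold change after IL-5 in T cells (y axis) against that in microglia (x axis), with 1 grey point per gene at a mean of at least 1 CPM in each cell type and the tested members of 1 list in colour in each panel. Of the 74 respiratory chain genes 63 had a shared fold change above 0, as had all 17 choroid plexus genes, and 30 of the 36 type I interferon-stimulated genes had one below 0. Above 0 in both cell types were 55 respiratory chain and 15 choroid plexus genes. Below 0 in both were 18 of the interferon-stimulated genes.

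Among the genes with the smallest p of those without overlap were, in the direction of higher levels after IL-5, Ly6d, 2900040C04Rik, Crb3, Cdkn2b, Mrps25, Atp6v1a and Cntn1. All had an adjusted p of 1 in edgeR. Ly6d (chr15:74762056-74763620, minus strand), a surface protein of the Ly6 family that marks early B lineage cells, stood at 81.9 and 68.4 CPM in PBS and 167 and 116 in IL-5 microglia, and 28.4 and 29.6 in PBS and 71.6 and 89.8 in IL-5 T cells (log2 fold change 1.31, SE 0.29). Its responses in T cells and microglia differed by 0.37 on the log2 scale (SE 0.57). Crb3 (chr17:57059105-57065918), a component of the epithelial polarity complex Crumbs, stood at 17.1 and 18 CPM in PBS and 54.9 and 49.6 in IL-5 microglia, and 9.77 and 8.55 in PBS and 22.5 and 27.3 in IL-5 T cells (log2 fold change 1.61, SE 0.40). For both genes each IL-5 library lay well above each PBS library of its cell type.

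Mrps25 (chr6:92169525-92184033), a protein of the small mitochondrial ribosomal subunit, stood at 45.4 and 28.8 CPM in PBS and 60.8 and 81.7 in IL-5 microglia, and 31.7 and 27.7 in PBS and 81.7 and 70.4 in IL-5 T cells (log2 fold change 1.24, SE 0.32). Atp6v1a (chr16:44085402-44139705), the catalytic subunit of the proton pump that acidifies lysosomes, was at 45.9 and 47.1 CPM in PBS and 65 and 89.3 in IL-5 microglia, and 103 and 115 in PBS and 188 and 205 in IL-5 T cells (log2 fold change 0.87, SE 0.23). Its fold changes in the 2 cell types were almost equal, 0.88 (SE 0.34) in microglia and 0.87 (SE 0.34) in T cells. Cntn1 (chr15:92051165-92341967), a neural adhesion molecule, was at 29.9 and 18 CPM in PBS and 73 and 59 in IL-5 microglia, and 223 and 135 in PBS and 386 and 252 in IL-5 T cells (log2 fold change 1.26, SE 0.34). In the T cells its lowest IL-5 library was only slightly above its highest PBS library.

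Cdkn2b (chr4:89306299-89311039), which encodes the cell cycle inhibitor p15, had no counts in any PBS library. After IL-5 it was at 7.05 and 4.41 CPM in the microglia libraries and 14.1 and 3.35 in the T cell libraries, at least 54.8-fold and at least 75.7-fold higher than 3 counts per PBS library would give. It went from no counts to a few CPM or more in all 4 IL-5 libraries. Cdkn2b was among the 8 genes that DESeq2 called higher, as was Crb3.

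**Figure D2:**
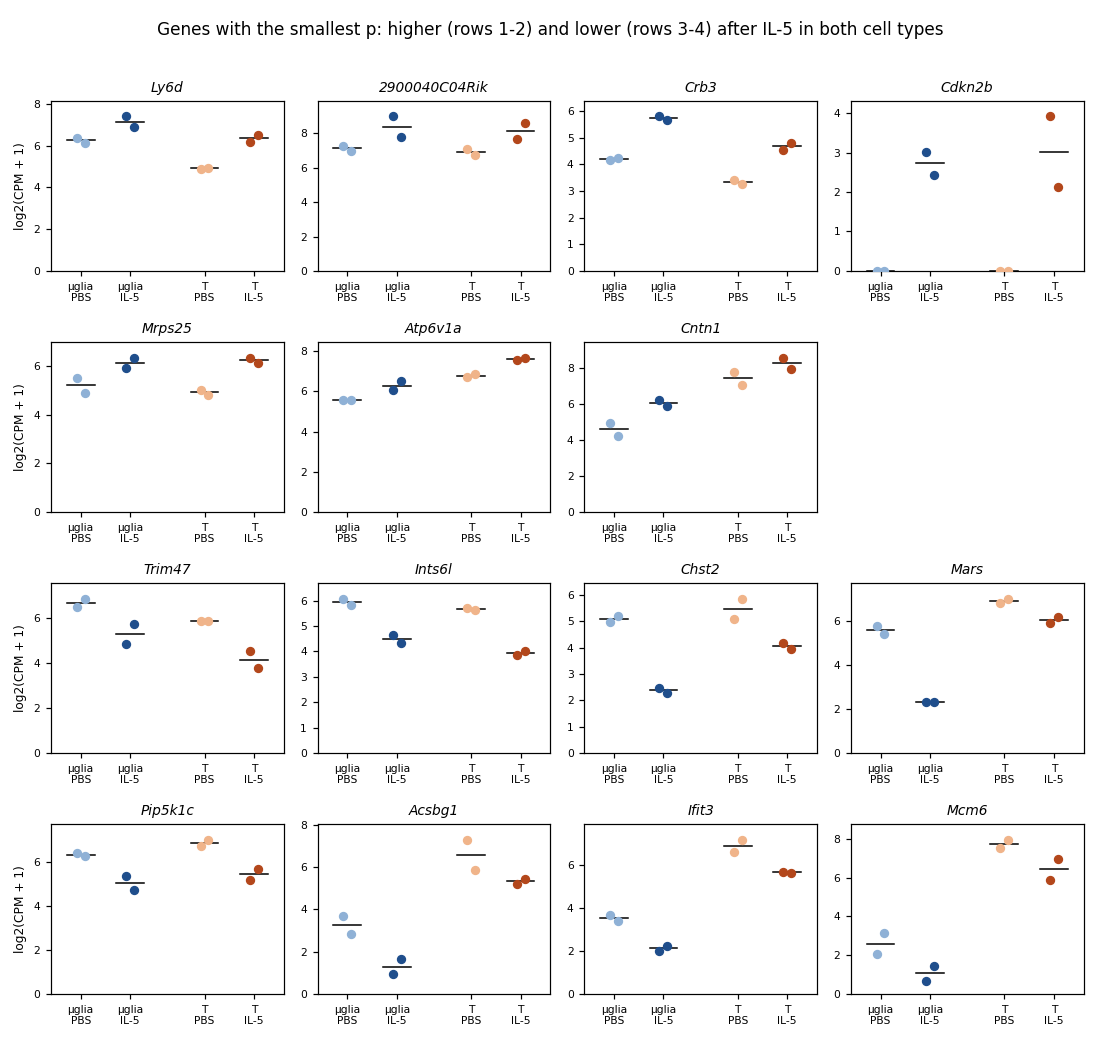
Level of genes with the smallest p among those without overlap in both cell types, as log2(CPM + 1) on the y axis, in 2 libraries per group (points) with their mean (bars). In the upper 2 rows of panels the IL-5 points lie above the PBS points in both cell types, and in the lower 2 rows below them. None of the genes passed the adjusted threshold in edgeR, and DESeq2 called Cdkn2b and Crb3.

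In the direction of lower levels the corresponding genes were Trim47, Ints6l, Chst2, Mars, Pip5k1c, Acsbg1, Ifit3 and Mcm6, again with an adjusted p of 1 in edgeR. Trim47 (chr11:116105752-116127210), a ubiquitin ligase of the TRIM family, stood at 88.9 and 114 CPM in PBS and 27.7 and 50.9 in IL-5 microglia, and 56 and 56.5 in PBS and 21.7 and 12.5 in IL-5 T cells (log2 fold change -1.47, SE 0.34). Ints6l (chrX:56454857-56507843), related to a subunit of the Integrator complex that processes small nuclear RNAs, stood at 66.9 and 56.1 CPM in PBS and 24.4 and 18.9 in IL-5 microglia, and 51.8 and 49.2 in PBS and 13.6 and 15.2 in IL-5 T cells (log2 fold change -1.55, SE 0.38). For both, the IL-5 libraries lay clear of the PBS libraries, with a wider spread between the IL-5 libraries for Trim47 than for Ints6l.

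Chst2 (chr9:95399292-95406722), a sulfotransferase that modifies the sugars to which L-selectin binds, stood at 30.4 and 35.8 CPM in PBS and 4.5 and 3.89 in IL-5 microglia, and 33.1 and 57.2 in PBS and 17 and 14.6 in IL-5 T cells (log2 fold change -2.14, SE 0.54). Mars (chr10:127296221-127311786), the cytosolic methionyl-tRNA synthetase, was at 53.6 and 41.3 CPM in PBS and 4.04 and 3.93 in IL-5 microglia, and 110.3 and 128 in PBS and 59.4 and 70.9 in IL-5 T cells. Mars had unequal estimates, -3.40 (SE 0.51) in microglia and -0.85 (SE 0.46) in T cells. Their difference did not pass the edgeR test (adjusted p = 0.904). Pip5k1c (chr10:81292963-81319973), a kinase that makes the membrane lipid PIP2, was at 81.8 and 75.8 CPM in PBS and 39.9 and 25.6 in IL-5 microglia, and 103 and 127 in PBS and 34.8 and 50.6 in IL-5 T cells (log2 fold change -1.24, SE 0.33). Acsbg1 (chr9:54604877-54661870), an acyl-CoA synthetase, stood at 11.8 and 6.19 CPM in PBS and 0.935 and 2.13 in IL-5 microglia, and 157 and 58.1 in PBS and 35.4 and 42.9 in IL-5 T cells (log2 fold change -1.93, SE 0.52). Its PBS T cell libraries differed by more than the gap between the groups.

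Mcm6 (chr1:128331590-128359664), a subunit of the helicase that opens DNA for replication, stood at 3.16 and 7.73 CPM in PBS and 0.595 and 1.73 in IL-5 microglia, and 185 and 248 in PBS and 58.3 and 124 in IL-5 T cells (log2 fold change -1.66, SE 0.46). Of 32 tested cell cycle genes it was the only one with an unadjusted p under 0.05, and 2 of the 28 at 1 CPM in both cell types lay below without overlap, against 3.85% of all genes. Top2a, another replication gene, was at 0.756 and 0.994 CPM in PBS and 0.68 and 1.62 in IL-5 microglia, and 24.1 and 24.8 in PBS and 50.1 and 75.2 in IL-5 T cells, higher in the IL-5 T cells and overlapping in microglia. The cell cycle genes therefore did not go one way.

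The remaining genes that DESeq2 called were mostly rare transcripts. Of its 14 genes, 10 had a group with no counts in either library, and 9 met the rule of no overlap at 1 CPM in both cell types. Pogz, a chromatin regulator, stood at 2.89 and 1.99 CPM in PBS and 14.1 and 10.6 in IL-5 microglia, and 0.833 and 1.13 in PBS and 26.1 and 20.1 in IL-5 T cells. Jarid2, which recruits the Polycomb repressor complex, was at 3.58 and 2.43 CPM in PBS and 7.9 and 23.7 in IL-5 microglia, and 9.84 and 4.39 in PBS and 36 and 37.3 in IL-5 T cells. Echdc3 had no counts in any PBS library and 1.32 and 3.89 CPM in IL-5 microglia and 9.68 and 3.69 in IL-5 T cells, at least 24.9-fold and at least 58.1-fold higher. Acox2 and Wdr17 were higher mainly in the IL-5 T cells.

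Among the genes it called lower, Sarm1, an NAD-degrading enzyme of axon loss, had no counts in the IL-5 libraries and 6.18 and 4.49 CPM in the PBS microglia and 23.2 and 0.311 in the PBS T cells. Xrcc2, a protein of homologous recombination, also had no counts after IL-5, against 4.77 and 7.03 CPM and 4.32 and 0.661 CPM after PBS. Wdr89 stood at 4.34 and 6.04 CPM in PBS and 0 and 0.147 in IL-5 microglia, and 20.7 and 8.47 in PBS and 0 and 0 in IL-5 T cells. Gsdme, a pore-forming gasdermin, rested on 1 PBS library in each cell type, 13.5 and 0 and 6.1 and 0 CPM, with no counts after IL-5. The genes E330017L17Rik and Slc47a1 completed the list. None of these genes passed in edgeR.

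The IL-5 receptor itself was not detected. Il5ra had no counts in any of the 8 libraries, and a level of up to 0.127 CPM would be missed in the shallowest. This bound, 3 counts, reflects counting error alone, because the reads carried no molecular identifiers that would mark them as independent. Csf2rb, the common beta chain, stood at 28 and 16.3 CPM in PBS and 48.1 and 11.3 in IL-5 microglia, and 0 and 0.117 in PBS and 1.61 and 1.28 in IL-5 T cells. Its T cell values were near 1 CPM after IL-5 and near 0 after PBS, and the microglia values overlapped. Reads of Csf2rb and of its close copy Csf2rb2, which stood at 6.54 and 8.87 CPM in the PBS libraries and 13.9 and 6.5 in the IL-5 libraries in microglia, may be split between them.

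Downstream of the receptor the pathway members did not rise together. Of 29 tested members of the receptor and JAK2-STAT5 list, 0 passed, 9 had a shared fold change above 0, and the median was -0.13, against -0.01 over all genes with 49.7% above 0. Below 0 in both cell types were 11 (37.9%, against 25.9% of all genes), and above 0 in both 2 (6.9%, against 24.0%). The summed list lay lower after IL-5 in both cell types. It was at 1580 to 2014 against 2176 to 2542 CPM in microglia and 3744 to 4082 against 4767 to 5256 CPM in T cells. Cish stood at 11.8 and 24.2 CPM in PBS and 2.85 and 17.4 in IL-5 microglia, and 342 and 316 in PBS and 298 and 166 in IL-5 T cells (log2 fold change -0.63, SE 0.46), and the 2 STAT matches printed above lie at its start. Socs2 was at 7.17 and 17.9 CPM in PBS and 6.76 and 10.7 in IL-5 microglia, and 36.5 and 52.6 in PBS and 43.1 and 24 in IL-5 T cells and overlapped in both cell types. Bcl2, a survival gene, was at 27.8 and 20.3 CPM in PBS and 8.84 and 24.2 in IL-5 microglia, and 577 and 475 in PBS and 285 and 402 in IL-5 T cells, lower in the IL-5 T cells and overlapping in microglia. Pim1 and Myc also overlapped in at least 1 cell type.

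Ptpn6, the phosphatase SHP-1 that dampens cytokine receptor signalling, was the only member of this list without overlap in the same direction in both cell types. It stood at 134 and 209.9 CPM in PBS and 75.4 and 109.5 in IL-5 microglia, and 267 and 265 in PBS and 137 and 149.7 in IL-5 T cells (log2 fold change -0.81, SE 0.24). Id1, an inhibitor of helix-loop-helix factors, was at 137 and 184 CPM in PBS and 294 and 263 in IL-5 microglia, and 99.7 and 119.9 in PBS and 187 and 105 in IL-5 T cells (log2 fold change 0.71, SE 0.29), clear of overlap in microglia and overlapping in T cells. Stat5a was at 17.3 and 14.2 CPM in PBS and 2.46 and 0.477 in IL-5 microglia, and 48.6 and 13.1 in PBS and 13.2 and 22.1 in IL-5 T cells, lower in the IL-5 microglia and overlapping in T cells. Stat5b went in opposite directions, at 21.8 and 18.7 CPM in PBS and 13.2 and 10.6 in IL-5 microglia, and 74.7 and 73.4 in PBS and 98 and 82.7 in IL-5 T cells, with a difference of the responses of 0.89 on the log2 scale (SE 0.72, adjusted p = 0.945).

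Nuclear-encoded genes of the respiratory chain and ATP synthase lay higher after IL-5 in both cell types more often than the genes as a whole. These proteins sit in the inner mitochondrial membrane, where complexes I to IV pass electrons to oxygen and ATP synthase uses the resulting proton gradient. Of 74 tested members (of 75 listed), 0 passed the threshold and 36 lay above without overlap in both cell types (48.6% of the members, against 3.71% of all genes), while 0 lay below. Without T cells IL-5 replicate 1, where 6.15% of all genes lay above, 52 members did. Without adjustment, 34 members were higher and 0 lower at p under 0.05. The median log2 fold change was 0.64 in the shared fit, 1.06 in microglia and 0.34 in T cells.

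By complex, 9 of 10 tested subunits of complex IV lay above without overlap, as did 16 of 35 of complex I, 4 of 9 of complex III, 5 of 15 of ATP synthase, 1 of 4 of complex II, and cytochrome c (Cycs). Uqcr11, a small subunit of complex III, stood at 383 and 272 CPM in PBS and 1279 and 451 in IL-5 microglia, and 269 and 221 in PBS and 359 and 432 in IL-5 T cells (log2 fold change 1.19, SE 0.39). Ndufb11, an accessory subunit of complex I, was at 322 and 270.2 CPM in PBS and 951 and 439 in IL-5 microglia, and 219.7 and 229.6 in PBS and 359 and 339 in IL-5 T cells (log2 fold change 1.07, SE 0.33). Cox7b of complex IV was at 386 and 336 CPM in PBS and 1002 and 527 in IL-5 microglia, and 341 and 328 in PBS and 494 and 563 in IL-5 T cells (log2 fold change 1.00, SE 0.30). In each of these the IL-5 libraries exceeded the PBS libraries in both cell types, and microglia IL-5 replicate 1 was far above every other library.

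Atp5g1, a subunit of the rotating ring of ATP synthase, showed the same order, at 359 and 263 CPM in PBS and 1124 and 504 in IL-5 microglia, and 288 and 216 in PBS and 337 and 448 in IL-5 T cells (log2 fold change 1.14, SE 0.37). Uqcrq of complex III was at 433 and 308 CPM in PBS and 1003 and 505 in IL-5 microglia, and 265 and 253 in PBS and 379 and 455 in IL-5 T cells. Sdhc, a membrane anchor of complex II, was the member of that complex without overlap, at 279 and 241 CPM in PBS and 337 and 364 in IL-5 microglia, and 183 and 166 in PBS and 229 and 251 in IL-5 T cells (log2 fold change 0.54, SE 0.21). Its microglia values after IL-5 were close to each other, unlike those of the small subunits above.

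The 11 members with a shared fold change below 0 included large catalytic subunits. Ndufv1, the NADH-binding subunit of complex I, stood at 127 and 163 CPM in PBS and 30.4 and 95.2 in IL-5 microglia, and 132 and 185 in PBS and 95.4 and 183 in IL-5 T cells. Uqcrc1, a core subunit of complex III, was at 130.0 and 177 CPM in PBS and 45.6 and 70.3 in IL-5 microglia, and 331 and 385 in PBS and 335 and 406 in IL-5 T cells. Atp5a1 and Atp5b, which form the catalytic head of ATP synthase, had shared log2 fold changes of -0.14 each (SE 0.25 and 0.34). Both Ndufv1 and Uqcrc1 were lower in the IL-5 microglia and overlapped in the T cells.

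Several technical measures moved with this group, and their part in it was tested only as far as the following values go. The summed level of the list was 21402 and 24344 CPM in PBS microglia and 28982 and 50615 CPM in IL-5 microglia, the highest in replicate 1, the library with the most reads outside genes. Without that library the median shared log2 fold change was 0.37, and 38 of 74 members lay above without overlap, against 7% of all genes. The transcripts of the list were short, with a median of 608 bases against 1429 over all genes tested, and the 3804 shortest genes, up to 806 bases, had a median shared log2 fold change of 0.06. With offsets that remove a trend on transcript length in each library the median of the list was 0.55. Over all genes the median was 0.06 with these offsets and -0.01 without them. Many small subunits have near-identical processed copies in the genome, and the way in which reads shared with them were counted is not given in the sources used here.

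Related mitochondrial and redox genes were less uniform. Of 78 mitochondrial ribosomal proteins 6 lay above and 3 below without overlap, against 3.71% and 3.85% of all genes, with a median of 0.14. The share below was thus that of all genes. Above without overlap were 12 without microglia IL-5 replicate 1, where 7% of all genes were, and 14 without T cells IL-5 replicate 1, where 6.15% were. Mrpl14 of the large subunit stood at 81 and 77.9 CPM in PBS and 191 and 106 in IL-5 microglia, and 44.5 and 39.1 in PBS and 62.9 and 69.2 in IL-5 T cells (log2 fold change 0.91, SE 0.31). Of 24 oxidative stress genes 4 lay above (against 3.71% of all genes) and 1 below (against 3.85%), with a median of 0.29 and 5 higher at an unadjusted p under 0.05. Sod1, the cytosolic superoxide dismutase, stood at 112 and 87.7 CPM in PBS and 168 and 161 in IL-5 microglia, and 127 and 91.1 in PBS and 142 and 184 in IL-5 T cells (log2 fold change 0.75, SE 0.25). Prdx3, the mitochondrial peroxiredoxin, was at 69.2 and 68.5 CPM in PBS and 87.1 and 97.4 in IL-5 microglia, and 81.1 and 95.9 in PBS and 143 and 117 in IL-5 T cells (log2 fold change 0.58, SE 0.24). In these genes the step was similar in microglia and T cells. The 1 member below was Keap1, which holds the stress factor NRF2 in check, with a shared log2 fold change of -0.70 (SE 0.56).

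Of 16 subunits of the vacuolar proton pump 3 lay above without overlap (against 3.71% of all genes) and 0 below, with a median of 0.09. Besides Atp6v1a these were Atp6v0e and Atp6v1f. The lysosome list went apart in the cell types, with a median of -0.53 in microglia and 0.26 in T cells, and 0 of 41 above and 2 below in both, against 3.71% and 3.85% of all genes. Cytosolic ribosomal proteins also split, with medians of 0.47 in microglia and -0.15 in T cells, and 2 of 77 above in both, fewer than the 3.71% of all genes. Without T cells IL-5 replicate 1, where 6.15% of all genes lay above, 13 did. Glycolysis genes had medians of -0.39 and 0.27 and no member without overlap in the same direction.

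**Figure D3:**
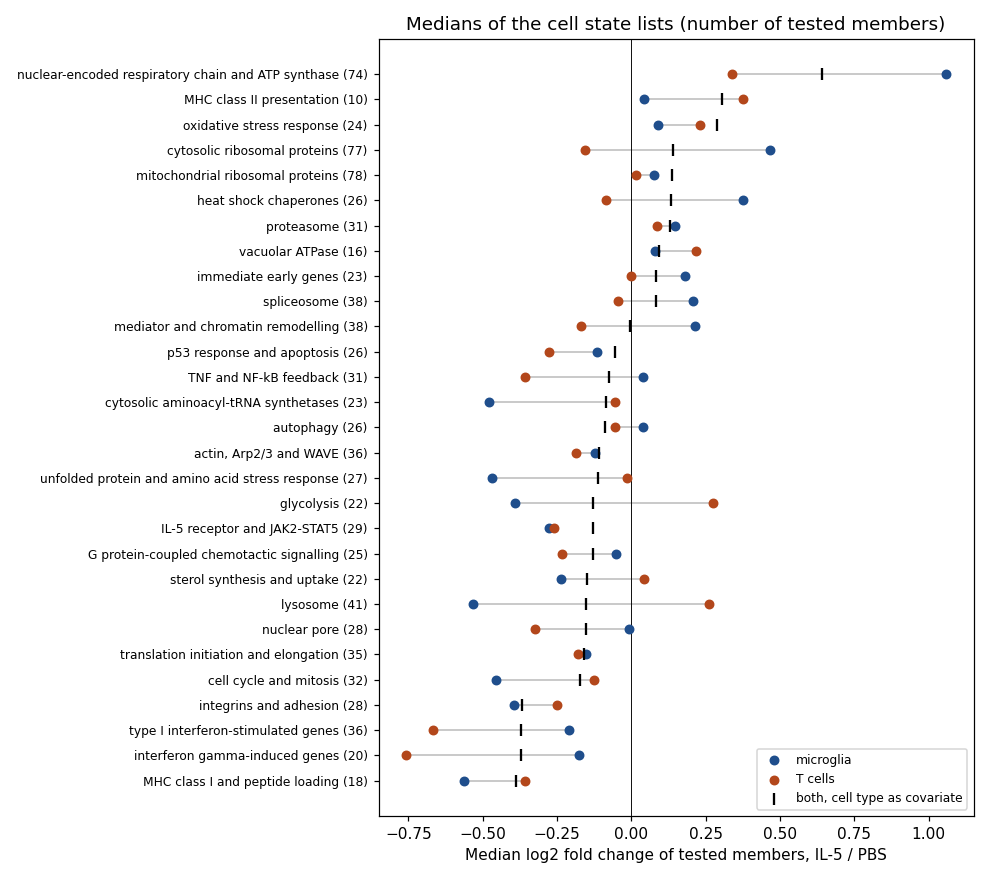
Median log2 fold change after IL-5 (x axis) of the tested members of the 29 cell state lists, in microglia (blue), in T cells (orange) and in the shared fit (black bars), with the number of members in brackets. The respiratory chain list has the highest shared median (0.64) and the MHC class I list the lowest (-0.39).

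Genes of the choroid plexus and ependyma, the epithelium that makes cerebrospinal fluid and the cells that line the ventricles, were higher after IL-5 in libraries of both cell types. All 17 tested members (of 18 listed) had a shared fold change above 0, 10 of them at an unadjusted p under 0.05, and 0 passed the adjusted threshold. In both cell types 15 (88.2%, against 24.0% of all genes) were above 0 and 0 (against 25.9%) below it. Of the 17, 8 lay above without overlap in both cell types (47.1%, against 3.71% of all genes) and 0 below, and 11 of 17 without microglia IL-5 replicate 1, where 7% of all genes lay above. The medians were 0.63 in the shared fit, 0.41 in microglia and 0.79 in T cells.

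Ttr, the thyroid hormone carrier that dominates choroid plexus RNA, stood at 39917 and 33495 CPM in PBS and 55913 and 59213 in IL-5 microglia, and 65068 and 45089 in PBS and 89983 and 91511 in IL-5 T cells (log2 fold change 0.78, SE 0.24). Its effect was alike in the cell types, 0.82 (SE 0.34) in microglia and 0.74 (SE 0.34) in T cells. Enpp2, the enzyme autotaxin, stood at 2552 and 1801 CPM in PBS and 3477 and 3650 in IL-5 microglia, and 16747 and 12007 in PBS and 19842 and 20878 in IL-5 T cells (log2 fold change 0.70, SE 0.25). Kl, the co-receptor klotho, was at 100.5 and 60 CPM in PBS and 172 and 126 in IL-5 microglia, and 283 and 383 in PBS and 532 and 653 in IL-5 T cells (log2 fold change 0.97, SE 0.28). All 3 genes were higher in every IL-5 library than in any PBS library of the same cell type.

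1500015O10Rik, which encodes the secreted peptide augurin, was at 546 and 471 CPM in PBS and 797 and 888 in IL-5 microglia, and 896 and 562 in PBS and 1186 and 1338 in IL-5 T cells (log2 fold change 0.85, SE 0.23). 2900040C04Rik was at 154 and 125 CPM in PBS and 508 and 223 in IL-5 microglia, and 134 and 108 in PBS and 202 and 391 in IL-5 T cells (log2 fold change 1.47, SE 0.36), with a wide spread between the IL-5 libraries. Aqp1, the water channel, was the member nearest to 0 and went in opposite directions, at 19.4 and 23.2 CPM in PBS and 6.37 and 15.5 in IL-5 microglia, and 21.8 and 65.8 in PBS and 104 and 89.8 in IL-5 T cells. The summed list was 45235 and 37677 CPM in PBS and 62491 and 66644 CPM in IL-5 microglia, and 87247 and 61536 CPM in PBS and 117721 and 121184 CPM in IL-5 T cells.

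Without Ttr the sums were 5318 and 4182 against 6578 and 7431 CPM for microglia, and 22179 and 16447 against 27739 and 29673 CPM for T cells. The order of the groups was thus the same without the most abundant gene. The listed choroid plexus and ependyma genes, summed, therefore made up more of each IL-5 library than of each PBS library of its cell type. The source of this RNA and its part in the other shared differences were not tested. Crb3 is a gene of epithelia in general and its higher level stood beside this list, with the same limit. Astrocyte genes had medians of -0.59 in microglia and 0.13 in T cells, and oligodendrocyte genes of -0.88 and 0.02, with no member of either list above or below without overlap in both. The summed astrocyte list was higher in the IL-5 T cells, at 2860 and 2912 CPM against 2675 and 1719 CPM after PBS. Most of this sum was the gene Clu, at 2520 and 2359 CPM in IL-5 T cells against 2193 and 1330 CPM after PBS. The astrocyte list was not summed without Clu. Fibroblast and meninges genes had a shared median of 1.34 over 9 tested members, with 0.30 in microglia and 2.38 in T cells, and 5 of the 9 were above 0 in both cell types, none without overlap in both.

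**Figure D4:**
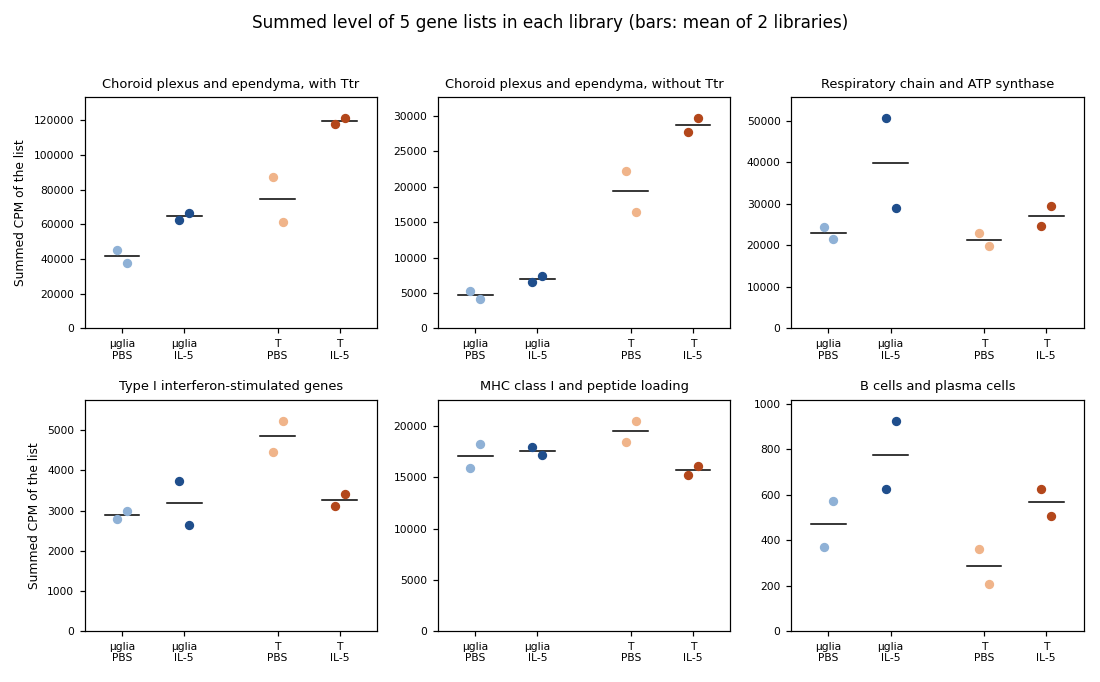
Summed CPM (y axis, from 0) of 5 gene lists, the first also without Ttr, in each of the 8 libraries (points), with the mean of 2 libraries (bars). Choroid plexus, respiratory chain and B cell sums are higher in the IL-5 libraries of both cell types. The IL-5 microglia of the respiratory chain panel are at 28982 and 50615 CPM. The B cell sum includes Ly6d, without which its microglia groups overlap. Interferon-stimulated and MHC class I sums are lower after IL-5 in the T cells and overlap in microglia.

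B cell genes also lay higher after IL-5, at low levels. Of 14 tested members 11 had a shared fold change above 0 with a median of 1.04, 0 passed, and 2 lay above and 1 below without overlap in both cell types, against 3.71% and 3.85% of all genes. In both cell types 10 (71.4%, against 24.0% of all genes) were above 0 and 1 (7.1%, against 25.9%) below it. Without microglia IL-5 replicate 1, where 7% of all genes lay above, 4 did. Cd79a, a signalling chain of the B cell receptor, was at 74.4 and 97.4 CPM in PBS and 208 and 172 in IL-5 microglia, and 104 and 23.3 in PBS and 66.6 and 60.4 in IL-5 T cells, above in microglia and overlapping in T cells. The summed list was 371 to 572 CPM in PBS and 626 to 925 CPM in IL-5 microglia, and 207 to 362 CPM in PBS and 507 to 624 CPM in IL-5 T cells. Ly6d, the gene with the smallest p of all, was 1 of the 2 members above and counts toward this sum. Its share was 167 CPM in microglia IL-5 replicate 1, the lower IL-5 sum. It was 68.4 CPM in microglia PBS replicate 2, the higher PBS sum. Taking Ly6d out reverses the order of these libraries, so that the microglia groups overlap, while the T cell groups stay apart. The part of B cells in the level of Ly6d was not tested.

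Type I interferon-stimulated genes, the antiviral program that interferon receptors turn on, tended to lie lower after IL-5. Of 36 tested members 30 had a shared fold change below 0, 4 of them at an unadjusted p under 0.05, and 0 passed. Only 18 (50%, against 25.9% of all genes) were below 0 in both cell types, and 3 (8.3%, against 24.0%) were above 0 in both. Of 34 at 1 CPM in both cell types 5 lay below without overlap in both (14.7%, against 3.85% of all genes) and 0 above. Without microglia IL-5 replicate 1, where 6.1% of all genes lay below, 9 did so. The medians were -0.37 in the shared fit, -0.21 in microglia and -0.67 in T cells.

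Ifit3 (chr19:34583531-34588731), an RNA-binding antiviral protein whose promoter is printed above, stood at 11.7 and 9.57 CPM in PBS and 2.97 and 3.75 in IL-5 microglia, and 93.9 and 142 in PBS and 50.1 and 48.7 in IL-5 T cells (log2 fold change -1.37, SE 0.37). Reads of Ifit3 and of its near-identical neighbour Ifit3b may be divided between them. Isg20, an exonuclease, was at 26.2 and 24.2 CPM in PBS and 8.71 and 18.8 in IL-5 microglia, and 142 and 240.0 in PBS and 91.5 and 84.4 in IL-5 T cells (log2 fold change -0.93, SE 0.32). Oasl2, a relative of the RNA-sensing oligoadenylate synthetases, was at 31.7 and 18.3 CPM in PBS and 10.1 and 1.36 in IL-5 microglia, and 67.7 and 71.3 in PBS and 50.9 and 21.7 in IL-5 T cells (log2 fold change -1.36, SE 0.67). Xaf1 and Oas2 were the other members without overlap, and Oas2 lay below 12 CPM in every library. The 5 genes differed in size of effect. That each was lower in both cell types follows from the rule that picked them.

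A member without a shared shift was Isg15, a ubiquitin-like modifier, at 55.6 and 43.1 CPM in PBS and 71.1 and 54.5 in IL-5 microglia, and 108 and 121 in PBS and 38.3 and 57.9 in IL-5 T cells. It was lower in the IL-5 T cells and overlapped in microglia. In summed level the list was 2791 and 3002 CPM in PBS and 3739 and 2653 CPM in IL-5 microglia, an overlap, and 4464 and 5242 CPM in PBS and 3111 and 3405 CPM in IL-5 T cells.

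Interferon gamma-induced genes had like medians, -0.37 in the shared fit, -0.18 in microglia and -0.76 in T cells, with 2 of 18 members below without overlap in both, against 3.85% of all genes, and 0 above. Cxcl10, a chemokine that draws activated T cells, stood at 53.6 and 65 CPM in PBS and 22.2 and 35 in IL-5 microglia, and 63.3 and 162 in PBS and 47.5 and 33 in IL-5 T cells (log2 fold change -1.19, SE 0.38). Igtp, a GTPase that acts on pathogen vacuoles, was at 28.1 and 41.7 CPM in PBS and 13 and 20.8 in IL-5 microglia, and 240.3 and 213 in PBS and 152 and 136 in IL-5 T cells (log2 fold change -0.77, SE 0.27). The promoters of both hold the interferon element printed above. The summed list lay lower in the IL-5 libraries of both cell types, at 388 to 607 against 646 to 831 CPM in microglia and 1363 to 1623 against 2115 to 2715 CPM in T cells.

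MHC class I genes present peptides to CD8 T cells, and 16 of 18 tested members had a shared fold change below 0 with a median of -0.39, 0 of them at an unadjusted p under 0.05. In both cell types 10 (55.6%, against 25.9% of all genes) were below 0 and 0 (against 24.0%) above it. Psme1, a proteasome activator subunit, stood at 264 and 291 CPM in PBS and 67.8 and 225 in IL-5 microglia, and 505 and 511 in PBS and 348 and 398 in IL-5 T cells (log2 fold change -0.63, SE 0.30). H2-T23, a non-classical class I chain, was at 436 and 512 CPM in PBS and 293 and 428 in IL-5 microglia, and 639.7 and 621 in PBS and 362 and 491 in IL-5 T cells (log2 fold change -0.40, SE 0.22). With H2-T22 these were the 3 members of 18 below without overlap, against 3.85% of all genes. B2m, the shared light chain, went apart, at 10577 and 11586 CPM in PBS and 15327 and 11904 in IL-5 microglia, and 7495 and 8513 in PBS and 6196 and 6254 in IL-5 T cells. Class I heavy chain genes are close copies of one another, so reads may be divided among them. Without microglia IL-5 replicate 1 the median was -0.22.

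TNF and NF-kB feedback genes did not move as a group, with medians of 0.04 in microglia and -0.36 in T cells and 2 of 29 below without overlap, against 3.85% of all genes. Without microglia IL-5 replicate 1, where 6.1% of all genes lay below, 6 did. Tnf itself, the inflammatory cytokine, was at 149 and 223 CPM in PBS and 59.2 and 152 in IL-5 microglia, and 97.1 and 59.5 in PBS and 25.3 and 50.9 in IL-5 T cells (log2 fold change -0.87, SE 0.34), lower in the IL-5 T cells and overlapping in microglia. The 2 members below were Birc3, an inhibitor of apoptosis, and Nfkbib, an inhibitor of NF-kB. Birc3 stood at 15.1 and 20.2 CPM in PBS and 3.99 and 12.7 in IL-5 microglia, and 75.7 and 34.6 in PBS and 21.8 and 19 in IL-5 T cells. MHC class II and immediate early genes had no member without overlap in the same direction in both cell types.

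Genes of cell shape and adhesion were lower more often than higher. Of 35 members of the actin, Arp2/3 and WAVE list at 1 CPM in both cell types 7 lay below without overlap (20%, against 3.85% of all genes) and 0 above, while the median over 36 was only -0.11. The 7 were Cyfip2, Abi3, Arpc1b, Capzb, Capza1, Coro1a and Actb. The summed list was not lower in microglia, at 39227 and 39392 CPM in PBS and 45301 and 39230 CPM after IL-5. In T cells it was lower, at 32934 and 34980 CPM in PBS and 26818 and 29272 CPM after IL-5. Cyfip2, a subunit of the WAVE complex that starts branched actin, stood at 8.94 and 7.88 CPM in PBS and 1.15 and 5.1 in IL-5 microglia, and 282 and 308 in PBS and 117 and 121 in IL-5 T cells (log2 fold change -1.32, SE 0.37). Abi3, another WAVE partner, was at 489.7 and 565 CPM in PBS and 163 and 413 in IL-5 microglia, and 75.1 and 69.9 in PBS and 51 and 44.1 in IL-5 T cells (log2 fold change -0.68, SE 0.26). Actb, the main cytoplasmic actin, was at 8417 and 10128 CPM in PBS and 3135 and 8190 in IL-5 microglia, and 10814 and 12320 in PBS and 8627 and 10040 in IL-5 T cells (log2 fold change -0.45, SE 0.27), with microglia IL-5 replicate 1 far below the other libraries.

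Of 28 integrin and adhesion genes 21 had a shared fold change below 0 with a median of -0.37, and 2 of 26 at 1 CPM lay below without overlap, against 3.85% of all genes. In both cell types 14 (50%, against 25.9% of all genes) were below 0 and 1 (3.6%, against 24.0%) above it. Itgb2, the beta chain of the leukocyte integrins, stood at 216 and 188 CPM in PBS and 22.1 and 108 in IL-5 microglia, and 433 and 502 in PBS and 264 and 406 in IL-5 T cells (log2 fold change -1.02, SE 0.42). Selplg, a ligand of P-selectin, was at 2874 and 3360 CPM in PBS and 905 and 1862 in IL-5 microglia, and 776 and 1098 in PBS and 771 and 736 in IL-5 T cells, lower in the IL-5 microglia and overlapping in T cells on the scaled values. Of 28 nuclear pore genes 4 lay below without overlap, against 3.85% of all genes, and 0 above. Nup50 was the clearest of these, at 17.4 and 25.2 CPM in PBS and 12.3 and 4.96 in IL-5 microglia, and 100.2 and 121 in PBS and 56.7 and 50.1 in IL-5 T cells (log2 fold change -1.04, SE 0.43).

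Genes whose responses differed between the cell types set the limit of what was shared. The test of that difference called 0 genes in edgeR (0% of 15397), and the smallest adjusted p was 0.0648. Without adjustment, at p under 0.05 the response of T cells exceeded that of microglia for 496 genes (3.22%) and fell short of it for 302 (1.96%), 5.18% in all. DESeq2 called 179 (1.23%) and 76 (0.524%). Within T cells 2 genes rose (0.013%), Prg2 and Hpgd, each with an adjusted p of 0.0343, and 0 fell. Within microglia 0 passed in either direction. The counts at an unadjusted p under 0.05 were 336 higher (2.18%) and 151 lower (0.981%) in T cells, 3.16% in all, and 490 higher (3.18%) and 426 lower (2.77%) in microglia, 5.95% in all.

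Prg2, the major basic protein of eosinophil granules, stood at 90.4 and 115 CPM in PBS and 61.1 and 70.4 in IL-5 microglia, and 0 and 0.117 in PBS and 34.2 and 24.7 in IL-5 T cells. Hpgd, which degrades prostaglandins, was at 289 and 254 CPM in PBS and 118 and 249.6 in IL-5 microglia, and 0 and 0.0777 in PBS and 7.94 and 10.7 in IL-5 T cells. Both were lower in the IL-5 microglia and near 0 in the PBS T cells, with an adjusted p of 0.0648 for the difference. Slpi, a secreted protease inhibitor, was at 108 and 151 CPM in PBS and 117 and 82.8 in IL-5 microglia, and 0 and 0.117 in PBS and 23.5 and 10.8 in IL-5 T cells, with an adjusted p of 0.115 for the difference. In the PBS T cells all 3 were at or below 0.117 CPM.

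Prg2 is itself 1 of the 14 listed markers of eosinophils, basophils and mast cells, the cells that carry the IL-5 receptor or share their granule proteins. With Prg2 they summed to 0.341 to 36.8 CPM in PBS and 57.6 to 58.0 CPM in IL-5 T cells, and to 172 to 234 CPM in PBS and 110 to 167 CPM in IL-5 microglia. The other 13 markers summed to 0.341 and 36.6 CPM in PBS and 23.8 and 32.9 CPM in IL-5 T cells, and to 81.2 and 119 CPM in PBS and 48.9 and 96.5 CPM in IL-5 microglia. Without Prg2 the groups thus overlapped in both cell types. Epx, the eosinophil peroxidase, had 0 and 0 CPM in PBS and 0 and 11.8 CPM in IL-5 T cells, so it was present in 1 of the 4 libraries. None of the 14 listed markers was at 0 in all 8 libraries. The receptor chain Il5ra, which is not among them, had no counts in any of the 8. The part of such cells was not tested.

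In the opposite direction, Gimap8 and Sh2d1a, genes of lymphocytes, had no counts in PBS microglia and 5.23 and 2.24 CPM and 6.37 and 6.02 CPM in IL-5 microglia, at least 35.7-fold and at least 59.3-fold higher. In T cells Gimap8 was lower after IL-5, at 144 and 95.7 after PBS and 80.7 and 64.1 after IL-5, and Sh2d1a overlapped, at 105 and 125 after PBS and 68.2 and 111 after IL-5. T cell markers in the IL-5 microglia summed to 20.2 and 144 CPM, against 70.7 to 90.8 CPM after PBS, and cytotoxic lymphocyte markers to 568 to 655 against 301 to 314 CPM. In the T cell libraries the cytotoxic lymphocyte markers went the other way, at 5244 to 6026 CPM after IL-5 against 7113 to 9244 after PBS. The part of such cells was not tested. The adjusted p of the difference was 0.115 for Gimap8 and 0.0648 for Sh2d1a.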

How the data were processed

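The deposited table gives unscaled counts, whole numbers with a row per gene and a column per library. The submitters' processing notes name STAR 2.5.3a, Cufflinks 2.0 and DESeq2 1.1 with the builds mm10 and GRCm38. The counting tool and its strand setting are not given in the sources used here, so reads of overlapping antisense genes cannot be told apart. Of 24953 entries, 2 summary rows and 27 genes with 53 cells that were not numbers were left out, which left 24924. Reads outside genes were 15.2% to 25.5% of a library and ambiguous reads 1.39% to 1.77%.

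The shared effect was tested with edgeR 4.0.16 (R 4.3.3) by quasi-likelihood, with cell type as a covariate, TMM scaling, filterByExpr with a minimum count of 10 and Benjamini-Hochberg adjustment at 0.05, two-sided. Effects within a cell type and their difference came from a 4-group fit. Standard errors (SE) follow from each fold change and its F statistic. An exact exchange of labels within cell types has 36 assignments and a smallest two-sided p of 0.0556, so it could not pass and was not used. The pipeline was tested on simulated data. The members and the 44 lists (29 of cell states, 15 of cell identities) were chosen with earlier results of these data known, from general knowledge.

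Named genes are, in each direction, the 8 with the smallest p among genes at 1 CPM in both cell types without overlap (no gene passed), up to 3 members per list with the smallest p, a fixed set around the receptor and markers, and up to 5 per direction of the difference of responses. Others named (such as those that DESeq2 called, Uqcr11, Atp5g1, Isg15 and B2m) were chosen after their values were seen. Some genes that these rules name are not reported here. Alternatives were RLE or library-size scaling, 2 other filters, DESeq2 1.42.0, a 4-group average, replicate blocks, limma-voom (limma 3.58.1), each library left out and, added later, transcript length offsets. Same-numbered libraries were not shown to share mice. Gene coordinates are from GENCODE M21 on GRCm38.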

Additional observations from a re-analysis of the deposited data

Results flagged for a closer look

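From a limited set of genes picked for naming, those without overlap of IL-5 and PBS libraries within either cell type that went in opposite directions were singled out. They are only a part of the 815 genes (6.58%) that went in opposite directions without overlap. B2m and Aqp1, described above as going apart, are not listed here. The difference of the log2 responses, T cells minus microglia, was 9.36 for Prg2, 9.12 for Ccar2 and 8.19 for Hpgd, which were higher after IL-5 in T cells and lower in microglia. It was -10.96 for Gimap8 and -11.21 for Samd3, which were lower after IL-5 in T cells and higher in microglia, and 0.89 for Stat5b. In edgeR none of these differences passed an adjusted p of 0.05. Apart from that of Stat5b, these values rest on groups at or near 0 counts and depend on the prior count of the fit, so they are not estimates of a fold. Ccar2, a regulator of deacetylases, stood at 18.2 and 20.0 CPM in PBS and 0.0425 and 0.0734 CPM in IL-5 microglia, and at 46.0 and 16.3 CPM in PBS and 56.0 and 65.2 CPM in IL-5 T cells.

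Reads outside annotated genes, which no comparison used, were more frequent in the IL-5 microglia than in the PBS microglia. They made up 25.5% of replicate 1 and 16.99% of replicate 2 after IL-5, against 15.2% and 16.2% after PBS.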

How the results depend on the processing

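The count of 0 genes higher and 0 lower in both cell types held in edgeR under RLE and library-size scaling, both other filters, the 4-group average, transcript length offsets and with each library left out, and in limma-voom. The smallest adjusted p over these was 0.0832, in limma-voom. DESeq2 called 8 higher and 6 lower. For the difference of the responses, where edgeR called 0, no filter on low counts gave 27 and 4, DESeq2 gave 179 and 76, and leaving out 1 library gave 0 to 178 higher and 0 to 54 lower, the most without microglia IL-5 replicate 2. Genes without overlap numbered 477 above and 463 below under RLE, 367 and 558 under library size, and 375 and 382 at 5 CPM. Omitting microglia IL-5 replicate 1 gave 865 and 754, and omitting T cells IL-5 replicate 1 gave 760 and 800. Leaving out a library of a pair relaxes that rule by construction.

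With the replicate number as a block, within or over cell types, 0 genes passed in either direction, for the shared effect and for the difference where it was fitted. Deviations of same-numbered PBS and IL-5 libraries correlated at 0.026 in microglia and 0.037 in T cells. Between microglia and T cells of one treatment they correlated at 0.033 after PBS and 0.018 after IL-5. The numbers were thus not shown to pair the libraries, and with 2 libraries per group such values cannot decide the question.

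Some single-gene values turned sign and none of these had passed. The log2 fold change of Csf2rb2 (-0.45) was 0.078 in limma-voom and ranged from -1.29 to 0.56 when 1 library was left out (0.56 without T cells PBS replicate 2). The log2 fold change of Stat5b (-0.13) was 0.10 in limma-voom and ranged from -0.27 to 0.12, and was 0.036 when microglia PBS replicate 1 was left out and 0.12 when microglia IL-5 replicate 2 was. The log2 fold change of S100a8 (-2.27) was 0.27 in limma-voom and ranged from -4.36 to 0.20, and the log2 fold change of Pim1 (0.16) from -0.028 to 0.37, with the extremes of opposite sign for both without T cells PBS replicate 2. The cause was not tested. Library-size scaling moved the median of all genes from -0.01 to -0.09. The depth limits detection to about 0.1 CPM, and 2 libraries per group limit every comparison.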
